A study of Mus musculus with 59 samples.

Results

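Tmem59l, Tlx2, Prph, Pou4f2 and Fgfbp3 are 5 of the 24391 genes listed in the expression tables of a mouse embryonic stem cell (ESC) series. They were chosen by their measured difference between Pcgf1-KO and control ESCs, as the genes with the highest fitted rises after Pcgf1 was deleted there, so that difference is described here without a test. All 5 had a level above 0 in at least 1 library of each line and so entered every fit. They carry a working label of neural genes, and Tmem59l, Tlx2, Prph and Pou4f2 are known from neurons or brain. The markers shared by neurons in general, however, did not move as a group with the 5 genes after the deletion. In Pcgf1-KO ESCs, of 14 pan-neuronal markers 1 was called higher (Elavl3) and 1 lower (Elavl4), with a list median of 0.15 (log2). Of all 20594 genes tested there, 0.32% were called higher and 0.32% lower, and their median was -0.02. The genes are therefore called by name.

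RNA was sequenced from 59 libraries of 6 mouse lines, each line grown as ESCs and as embryoid bodies (EBs), the aggregates that form when ESCs are kept in suspension for 2 days without the factors that hold them undifferentiated. ESCs were grown with LIF and 3 kinase inhibitors (SU5402, PD184352 and CHIR99021) on mouse embryonic fibroblast feeders. Every line carried an ERT2-Cre recombinase that 4-OHT (4-hydroxytamoxifen) switches on, the control libraries came from cells without 4-OHT and the mutant libraries from cells given 4-OHT, so an effect of 4-OHT itself cannot be told apart from that of the mutation. The Pcgf1 line went from Pcgf1 f/f to Pcgf1 delta/delta (4 control ESC, 5 KO ESC, 5 control EB and 5 KO EB libraries). The point mutant line carried catalytic point mutations of both Ring1a alleles (pm/pm) in all its groups and a conditional Ring1b allele (cpm) that 4-OHT turned into the pm form (2 libraries in each of 4 groups). The Ring1A/B line lacked Ring1a in its controls too and lost Ring1b after 4-OHT, and the Pcgf2/4, Pcgf3/5 and Pcgf6 lines lost the genes in their names (2 libraries per group in each of these 4 lines). Each genotype was studied in a single line, and no label says that replicates came from separate cultures, so a p-value measures the spread between these libraries, which may be technical.

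The deposited name gave another condition than the label for 21 of the 32 libraries of these last 4 lines. These libraries stayed in the groups of their labels and are described last. In the Pcgf1 and point mutant lines, names and labels gave the same condition for every library. Levels are deposited as TPM (a share of all transcripts, corrected for transcript length), from which the read depth of a library cannot be recovered, so no counting interval is given. Between 6216 and 9139 genes were listed at 0 per library in these 2 lines, no 2 of the 59 libraries held identical values, and fewer cells of a type and less RNA per cell cannot be told apart in such bulk samples.

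Polycomb repressive complex 1 (PRC1) keeps developmental genes silent in stem cells, and its RING1A or RING1B subunit attaches ubiquitin to lysine 119 of histone H2A. PCGF1 is the subunit that defines a variant PRC1, which reaches unmethylated CpG islands through the CXXC domain of KDM2B. Many genes of neuronal fate have CpG-rich promoters and are held by Polycomb complexes in ESCs. Among the 5 genes, Tlx2 and Pou4f2 encode homeodomain transcription factors, of enteric and other neural-crest-derived neurons and of retinal ganglion cells respectively. Prph encodes peripherin, a type III intermediate filament of peripheral neurons. Tmem59l encodes a brain-enriched membrane glycoprotein related to TMEM59, and Fgfbp3 a secreted protein that binds fibroblast growth factors (FGFs).

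The 5 genes are short and lie on 4 chromosomes. In the mm9 annotation, Tmem59l is at chr8:73007775-73011257 on the minus strand with 8 exons, and Pou4f2 at chr8:80956908-80960551 on the minus strand with 2 exons. Tlx2 is at chr6:83018311-83020287 on the minus strand with 2 exons. Prph is at chr15:98885605-98889409 on the plus strand with 8 exons, and Fgfbp3 at chr19:36992040-36994105 on the minus strand with 2 exons. None of them overlapped another annotated gene. RefSeq promoters (GRCm38.p6 build, 250 bases before to 50 bases after the start, written 5′ to 3′ on the gene's strand) were matched for 4 of the 5 genes and are shown because PCGF1-PRC1 is brought to CpG-rich DNA. CG dinucleotides are in capitals.
Tmem59l (chr8:70487299-70487598, minus strand): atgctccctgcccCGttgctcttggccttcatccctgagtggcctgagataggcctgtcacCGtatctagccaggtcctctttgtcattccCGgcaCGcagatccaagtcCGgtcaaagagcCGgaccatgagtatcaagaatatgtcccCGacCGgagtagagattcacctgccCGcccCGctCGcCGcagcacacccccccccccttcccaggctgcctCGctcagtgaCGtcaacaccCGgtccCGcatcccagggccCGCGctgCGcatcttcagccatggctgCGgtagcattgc
Prph (chr15:99054924-99055223, plus strand): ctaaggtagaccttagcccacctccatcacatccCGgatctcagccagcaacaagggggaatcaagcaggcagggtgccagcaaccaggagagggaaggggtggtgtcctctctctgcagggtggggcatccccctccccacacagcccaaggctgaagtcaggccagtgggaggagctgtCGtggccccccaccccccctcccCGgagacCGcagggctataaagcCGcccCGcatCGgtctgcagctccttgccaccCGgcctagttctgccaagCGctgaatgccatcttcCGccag
Pou4f2 (chr8:78436598-78436897, minus strand): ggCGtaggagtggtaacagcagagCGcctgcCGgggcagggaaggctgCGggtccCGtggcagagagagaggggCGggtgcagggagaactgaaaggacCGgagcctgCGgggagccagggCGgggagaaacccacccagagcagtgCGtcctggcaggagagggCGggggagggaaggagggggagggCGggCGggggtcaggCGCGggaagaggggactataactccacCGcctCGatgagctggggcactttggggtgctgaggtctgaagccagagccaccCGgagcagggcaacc
Fgfbp3 (chr19:36919550-36919849, minus strand): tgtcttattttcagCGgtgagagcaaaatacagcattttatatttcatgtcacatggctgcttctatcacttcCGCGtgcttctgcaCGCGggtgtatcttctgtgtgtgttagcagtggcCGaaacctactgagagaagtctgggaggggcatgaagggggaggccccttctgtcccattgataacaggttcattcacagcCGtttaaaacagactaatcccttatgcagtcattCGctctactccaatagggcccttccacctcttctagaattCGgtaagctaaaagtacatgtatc
Tlx2 had no entry in the table.

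These 4 promoters differed in base composition. The Tmem59l window held 20 CG dinucleotides and the Pou4f2 window 18, against a median of 7 over the 32851 promoters of the table, and 26.5% and 29.7% of all promoters held as many. The Prph window held 10 and the Fgfbp3 window 9, numbers reached by 43.5% and 45.8% of promoters. GC content was 63.0% for Tmem59l, 64.7% for Prph, 69.7% for Pou4f2 and 46.7% for Fgfbp3, and the median of all promoters was 52.7%. The ratio of observed to expected CG was 0.71, 0.32, 0.56 and 0.55 in the same order, and the median ratio was 0.38. So Tmem59l and Pou4f2 lay in the CG-rich part of the range and Prph was GC-rich with few CG pairs. On both strands the letters TATAAA were found in 2 windows, at 31 bases before the start of Prph on the gene's strand and at 214 bases before that of Fgfbp3 on the other strand. They stand in 13.6% of all promoters. The palindrome TGACGTCA, searched for after the sequence had been seen, began 22 bases before the start of Tmem59l and is present in 1.79% of promoters. A match of letters is a description only.

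In the Pcgf1 line, the deletion was visible in the targeted gene. Pcgf1 was at 10.7, 11.7, 13 and 13.6 TPM in control ESCs and at 0.835, 1.06, 0.627, 2.77 and 1.65 TPM in KO ESCs. It was at 11.2, 7.30, 10.4, 16.6 and 16.5 TPM in control EBs and at 0.978, 1.53, 1.09, 2.47 and 2.32 TPM in KO EBs. At neither stage did the groups overlap.

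Each of the 5 genes was low in control ESCs and higher in KO ESCs. Tlx2, the homeobox gene of the enteric nervous system, was at 0.156, 0.296, 0.792 and 1.92 TPM in control ESCs and at 4.41, 6.13, 5.35, 7.38 and 7.16 TPM in KO ESCs. Pou4f2 was at 0.696, 0.529, 0.530 and 0.758 TPM in control ESCs and at 2.20, 8.35, 5.29, 2.21 and 2.13 TPM in KO ESCs. Replicates 2 and 3 of the KO stood above the other 3 KO libraries for Pou4f2, whereas the KO libraries were close together for Tlx2.

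Prph, the neuronal filament gene, was at 1.32, 2.28, 1.52 and 3.18 TPM in control ESCs and at 9, 9.92, 9.99, 11.7 and 13.3 TPM in KO ESCs. Tmem59l was at 0.902, 0, 0 and 1.09 TPM in control ESCs and at 4.91, 4.04, 4.79, 6.10 and 6.54 TPM in KO ESCs. Fgfbp3 was at 0.127, 0.725, 0 and 0.462 TPM in control ESCs and at 0.969, 2.11, 1.87, 1.38 and 1.23 TPM in KO ESCs. No control library reached the lowest KO library for any of the 5 genes, which is also a condition of the ranking given next and so not a result. The narrowest gap was that of Fgfbp3.

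On the log2(TPM + 0.1) scale, the fitted differences between KO and control ESCs were 4.00 ± 0.58 (SE) for Tmem59l, 3.22 ± 0.55 for Tlx2, 2.39 ± 0.28 for Prph, 2.29 ± 0.49 for Pou4f2 and 2.28 ± 0.49 for Fgfbp3. These genes sat at the top of the 61 genes that had a level of at least 1 TPM on average in a group, no overlap between KO and control ESCs and an adjusted p under 0.05. Of all 20594 genes tested in the line, 0.32% were called higher in KO ESCs, and the 5 genes are called by construction. Just outside were Arid3c with 2.26 (0.528 to 1.81 TPM in KO ESCs against 0 to 0.242 in controls), Plk5 with 2.17 (16.2 to 27.6 against 3.18 to 6.03) and Wnt6 with 2.16 (1.57 to 3.07 against 0.205 to 0.941). The difference between Fgfbp3 and Arid3c (2.28 against 2.26) is smaller than the standard error of 0.49 of either value. With a pseudocount of 1 the differences shrank to 2.14 for Tmem59l, 2.06 for Tlx2, 1.48 for Pou4f2 and 0.93 for Fgfbp3, because their control levels lie near the pseudocount.

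The libraries fell into series named in the file headers, replicate 1 in the first, replicates 2 and 3 in the second and replicates 4 and 5 in the last pair. Within these, the KO minus control ESC difference (log2) was 2.32, 5.49 and 2.43 for Tmem59l, 4.14, 3.29 and 1.86 for Tlx2, and 2.68, 2.36 and 1.94 for Prph. For Pou4f2 it was 1.53, 3.42 and 1.40, and for Fgfbp3 2.23, 2.86 and 1.32. KO was above control within each of the 3 for every gene, which the lack of overlap between the groups made certain beforehand.

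**Figure D1:**
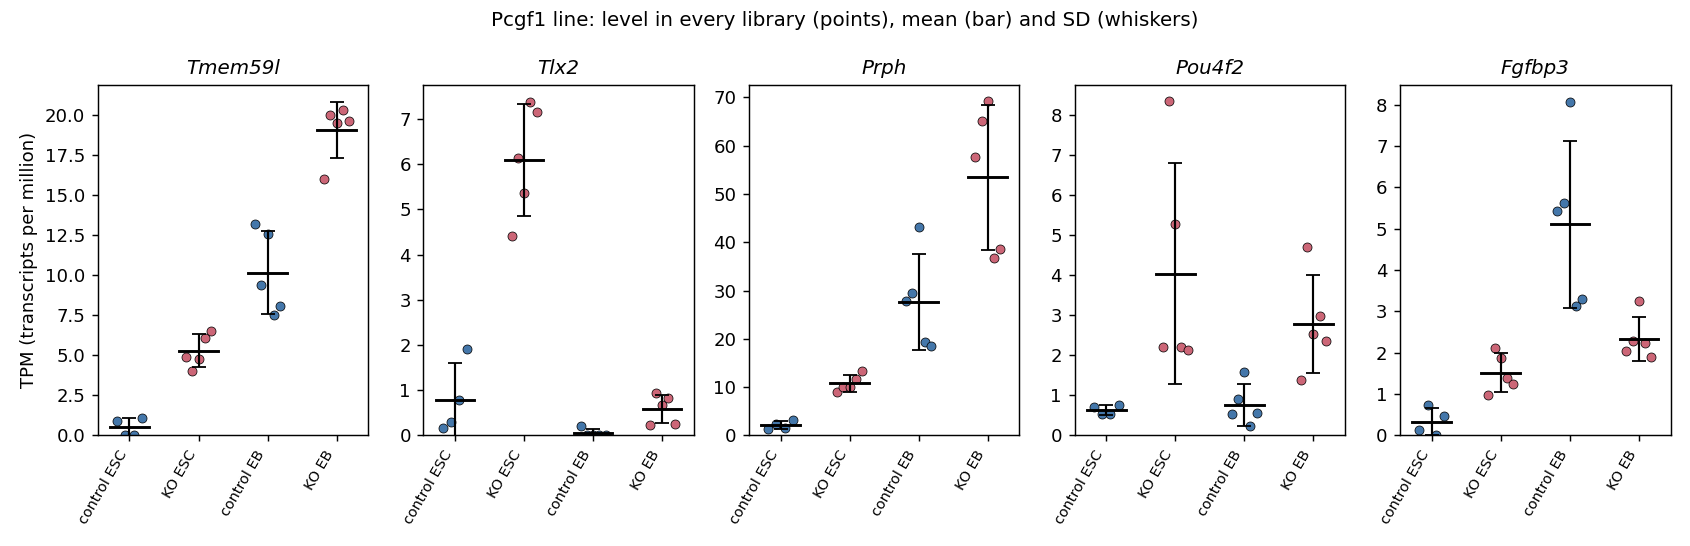
Level (TPM, linear axis from 0) of the 5 genes in the 4 groups of the Pcgf1 line; points are libraries, horizontal bars are group means and whiskers are the SD, not drawn below 0. Tmem59l and Prph were highest in KO EBs (means of 19.1 and 53.5 TPM), Tlx2 and Pou4f2 were highest in KO ESCs (6.08 and 4.04 TPM), and Fgfbp3 was highest in control EBs (5.10 TPM).

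Whether the effect of the deletion was also seen after differentiation was tested in EBs. EB levels did not enter the ESC difference that ranked the genes, but the model behind it shares 1 estimate of the spread over all 4 groups of the line, EBs included. Of the 5 genes, 2 passed the threshold as higher in KO EBs, Tlx2 and Pou4f2, both transcription factors, and none as lower (limma, where Fgfbp3 alone was lower at an unadjusted p under 0.05). Over all 20594 genes, 1.08% were called higher and 0.874% lower. The median log2 difference of the 5 was 0.97 and that of all genes was -0.03. Fgfbp3 was the only one of the 5 whose KO EBs were below the controls. When the EB groups alone entered the fit, neither call held (limma, adjusted p = 0.0604 for Tlx2 and 0.146 for Pou4f2).

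Tlx2 was at 0.201, 0, 0, 0 and 0 TPM in control EBs and at 0.238, 0.930, 0.664, 0.821 and 0.257 TPM in KO EBs. Every KO library was above every control library, although the levels were low, below 1 TPM throughout, and replicate 1 of the KO exceeded its control by 0.17 (log2) only. The gene rose by 2.30 ± 0.52 on the log2 scale (limma, adjusted p = 0.0259), a value that rests on the pseudocount because 4 controls are listed at 0.

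Pou4f2 was at 0.538, 0.902, 1.59, 0.222 and 0.569 TPM in control EBs and at 1.38, 4.71, 2.52, 2.99 and 2.35 TPM in KO EBs. The groups overlapped in 1 place, since the highest control (1.59) lay above the lowest KO library (1.38). The gene rose by 1.85 ± 0.46 (limma, adjusted p = 0.0474), from 0.764 ± 0.520 (SD, n = 5) to 2.79 ± 1.22 TPM (SD, n = 5).

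Prph was at 27.8, 29.5, 43.2, 19.4 and 18.5 TPM in control EBs and at 57.7, 65.1, 69.2, 36.8 and 38.5 TPM in KO EBs. KO was higher in 5 of 5 replicate pairs, and the ranges overlapped because replicates 4 and 5 were low in both groups. The difference of 0.97 ± 0.27 missed the threshold (limma, adjusted p = 0.072). It passed when the replicate number was a block in the fit (limma, adjusted p = 0.0299). The check of the pairing compared only libraries of the same number, so pairing by number cannot be told apart from a shared library series. Within the 3 sets of libraries the difference was 1.05, 0.91 and 0.99.

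Tmem59l was at 13.2, 9.36, 12.6, 7.52 and 8.09 TPM in control EBs and at 16, 20, 19.5, 20.3 and 19.6 TPM in KO EBs. The groups did not overlap, with means of 10.1 ± 2.59 and 19.1 ± 1.77 TPM (SD, n = 5 each), yet the fitted difference of 0.94 ± 0.55 was not past the threshold (limma, adjusted p = 0.593). With the EB groups alone in the fit the adjusted p was 0.0669, and with a pseudocount of 1 the difference was 0.88 (adjusted p = 0.049).

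Fgfbp3 in control EBs was at 5.42, 5.61, 8.07, 3.12 and 3.29 TPM and at 2.04, 2.28, 3.25, 2.23 and 1.89 TPM in KO EBs. KO was lower in 5 of 5 pairs, with 1 KO library (3.25) above the lowest control (3.12). The difference was -1.03 ± 0.46 (limma, adjusted p = 0.367). Within the 3 sets of libraries it was -1.36, -1.27 and -0.62.

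A two-sided exact permutation test of each gene alone, 5 libraries against 5, gave p = 0.00794 for Tmem59l and Tlx2, which is the smallest p that this design allows. The exact test gave p = 0.0159 for Pou4f2 and Fgfbp3 and p = 0.0238 for Prph. The calls in EBs moved with the settings. For Tlx2 the adjusted p crossed 0.05 without any of control EB replicates 2, 3, 4 and 5 (0.0621, 0.0623, 0.0511 and 0.054) or KO EB replicates 2 and 4 (0.0607 and 0.0818). For Pou4f2 it stayed under 0.05 only without control EB replicate 3 (0.0255), KO EB replicate 1 (0.0304) or KO ESC replicate 2 (0.0349) and lay between 0.0519 and 0.119 without each of the other 16 libraries. With a pseudocount of 1 the calls were Prph (adjusted p = 0.0458) and Tmem59l (0.049) in place of Tlx2 (0.205) and Pou4f2 (0.0673).

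Within the Pcgf1 line, the same genes were ordered differently over the 4 groups. Tmem59l went from control ESCs (0.498 ± 0.581 TPM, n = 4) to KO ESCs (5.28 ± 1.02, n = 5), control EBs and KO EBs, and no 2 neighbours in that order overlapped. Prph followed the same order, from 2.07 ± 0.842 TPM in control ESCs to 10.8 ± 1.72 in KO ESCs, 27.7 ± 9.95 in control EBs and 53.5 ± 15 in KO EBs, and only the EB groups overlapped. Fgfbp3 went from control ESCs (0.329 ± 0.328) to KO ESCs (1.51 ± 0.468), KO EBs (2.34 ± 0.534) and control EBs (5.10 ± 2.02), and each neighbouring pair above control ESCs overlapped.

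For the transcription factors the stage order was different. Tlx2 was lowest in control EBs, which overlapped control ESCs (0.792 ± 0.802 TPM), and KO EBs (0.582 ± 0.320) lay within the range of control ESCs, while KO ESCs (6.08 ± 1.24) stood above every other library of the line. Pou4f2 was alike in control ESCs (0.628 ± 0.117) and control EBs (0.764 ± 0.520) and higher in KO EBs and KO ESCs (4.04 ± 2.76), and the KO groups overlapped each other. From control ESCs to control EBs the fitted differences (log2), given as a description because they use the ESC libraries of the rule, were 4.92 for Tmem59l, 3.93 for Fgfbp3, 3.69 for Prph, 0.05 for Pou4f2 and -2.39 for Tlx2. From KO ESCs to KO EBs they were 1.85, 0.62, 2.26, -0.39 and -3.31 in the same order. Subtracting the KO difference in ESCs from that in EBs gave -3.07 for Tmem59l, -3.31 for Fgfbp3, -1.42 for Prph, -0.44 for Pou4f2 and -0.92 for Tlx2, that is, below 0 for all 5, which the choice of genes with high ESC effects favours.

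**Figure D2:**
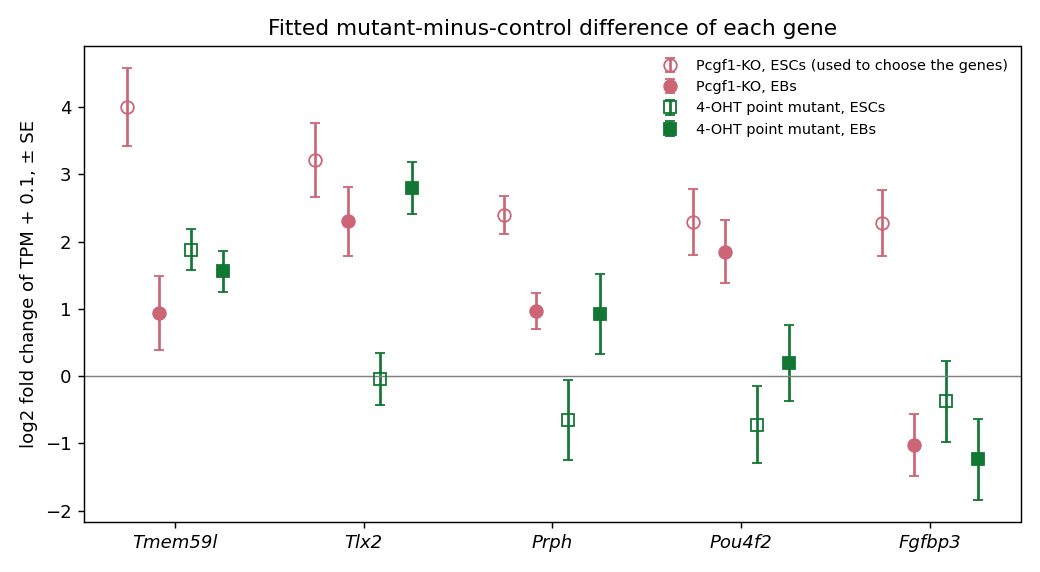
Fitted log2 difference on the log2(TPM + 0.1) scale, mutant minus control, for the 5 genes in ESCs and EBs of the Pcgf1 line and of the point mutant line; whiskers are the standard error. In the Pcgf1 line the ESC values (2.28 to 4.00) are those that chose the genes, and in EBs only Fgfbp3 (-1.03) is below 0, while in the point mutant line Tmem59l is above 0 at both stages (1.88 and 1.56) and Tlx2 in EBs (2.80).

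One of the 5 genes lies next to the gene that was deleted. Tlx2 and Pcgf1 are neighbours on mm9 chr6 with no other coding gene between them. They point away from each other, and the start of Pcgf1 at 83028380 on the plus strand is 8093 bases from the start of Tlx2. Dqx1, 1107 bases from Tlx2 on its other side, differed between KO and control EBs by 0.19 (limma, adjusted p = 0.97). Lbx2, the next gene beyond Pcgf1, starts 16072 bases from Tlx2 and differed in EBs by 0.98 (limma, adjusted p = 0.761), from 1.06 to 1.48 TPM. In ESCs Lbx2 differed by 1.63 (limma, adjusted p = 0.676), from 0.979 to 2.22 TPM. The part of the deleted locus in the level of Tlx2 was not tested.

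**Figure D3:**
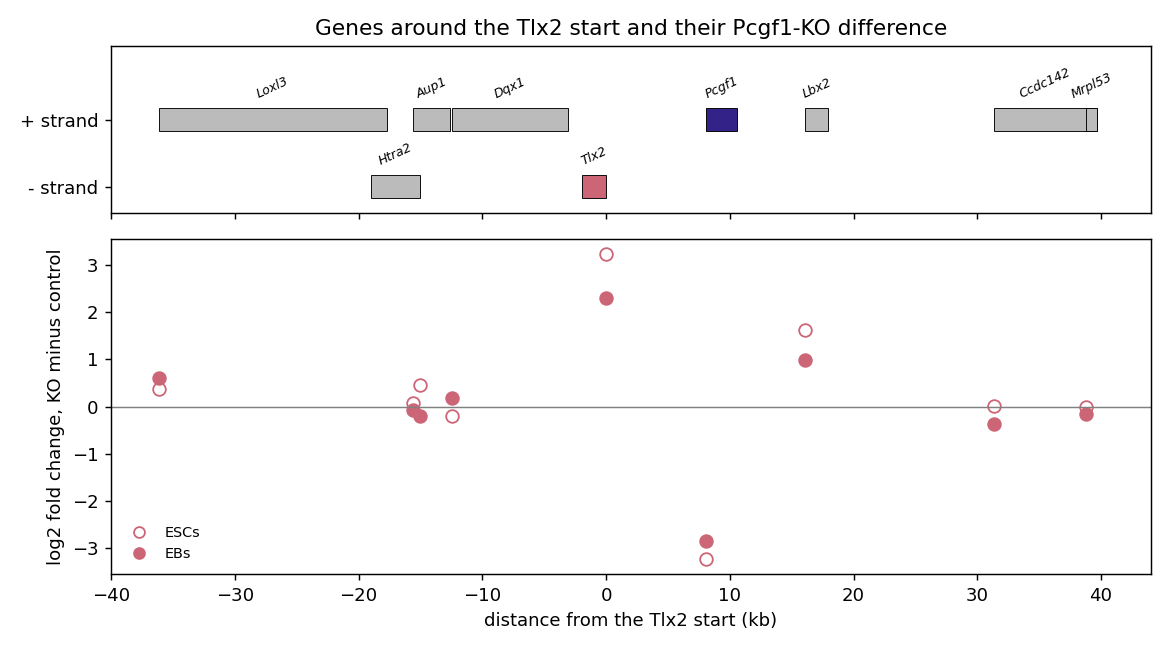
Genes around Tlx2 by their distance in kilobases from the Tlx2 start (horizontal axis) and their fitted log2 difference, Pcgf1-KO minus control, in ESCs and EBs. Pcgf1 (-3.23 and -2.84) and Tlx2 (3.22 and 2.30) stand on opposite sides of 0, Lbx2 (1.63 and 0.98) lies above it and Dqx1 (-0.21 and 0.19) near it.

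The point mutant line asked whether the same genes changed when Ring1b was turned into its pm form in cells already Ring1a pm/pm. The rule did not use these libraries. The targeted change is a point mutation, which expression levels do not show: Rnf2, the Ring1b gene, differed by -0.36 in ESCs (limma, adjusted p = 0.317). In treated ESCs, 1 of the 5 genes was called higher, Tmem59l, against 2.34% of the 20279 genes tested, and in treated EBs 2 of 5, Tlx2 and Tmem59l, against 3.76% called higher and 0.764% lower. The median of the 5 was -0.37 in ESCs and 0.93 in EBs, where the median of all genes was 0.12 and 0.10. All calls in EBs divided into 763 higher and 155 lower with the deposited TPM and into 631 and 293 with median-of-ratios scaling, or 481 and 299 with quantile normalization. In ESCs the division was 475 and 40, 437 and 75, and 167 and 40 respectively.

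Tmem59l was at 3.68 and 2.11 TPM in untreated ESCs and at 11.4 and 9.67 TPM in treated ESCs. In EBs it was at 5.92 and 4.88 TPM untreated and at 15.6 and 16.5 TPM treated. The groups were apart at both stages, and the gene rose by 1.88 ± 0.30 in ESCs (limma, adjusted p = 0.0283) and by 1.56 ± 0.30 in EBs (limma, adjusted p = 0.0365).

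Tlx2 was at 10.2 and 10.7 TPM in untreated ESCs and at 11.5 and 8.90 TPM in treated ESCs, a difference of -0.04 ± 0.39 (limma, adjusted p = 1). In EBs it was at 0.212 and 0.259 TPM untreated and at 3.11 and 1.59 TPM treated. It rose there by 2.80 ± 0.39 (limma, adjusted p = 0.015). The level in untreated ESCs of this line was above every library of the Pcgf1 line, whose KO ESCs reached 7.38 TPM.

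Prph was at 21.6 and 32.7 TPM in untreated ESCs, 13.9 and 20.6 in treated ESCs, 6.11 and 21.9 in untreated EBs and 15.9 and 31 in treated EBs. Pou4f2, over these groups in turn, was at 3.25 and 2.24, at 2.62 and 0.959, at 0.851 and 1.04, and at 1.56 and 0.757 TPM. Fgfbp3 was likewise at 1.23 and 1.34, at 1.79 and 0.501, at 3.03 and 5.29, and at 2.06 and 1.30 TPM. For these 3 genes no difference between treated and untreated passed the threshold (limma, adjusted p of 0.304 to 0.909), and Fgfbp3 was lower in both treated EB libraries (difference of -1.24 ± 0.60), as it was in KO EBs of the Pcgf1 line.

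From untreated ESCs to untreated EBs, Tlx2 fell by 4.98 ± 0.39 on the log2 scale (limma, adjusted p = 0.00179), and it was the only one of the 5 genes called, against 4.73% of all genes called in either direction. In treated cells its difference between EBs and ESCs was -2.13 (limma, adjusted p = 0.145), and none of the 5 was called, against 0.133% of all genes, with Tlx2 alone under 0.05 before adjustment. The difference of the 4-OHT effect between EBs and ESCs was 2.84 ± 0.55 for Tlx2 and did not pass the threshold (limma, adjusted p = 0.273), so a difference between the stages was not shown. With 2 libraries a group the calls of this line were fragile. Without any 1 of the 8 libraries Tmem59l in ESCs was past the threshold in no case (adjusted p of 0.0648 to 0.194). In EBs it stayed past it only without 1 of the untreated ESC libraries (0.0434 and 0.0469), and Tlx2 only without untreated ESC replicate 1 (0.0496) or treated EB replicate 2 (0.0373). When only the 2 groups compared entered the fit, none of the 3 calls held (adjusted p of 0.115 for Tmem59l in ESCs, 0.0684 in EBs and 0.079 for Tlx2).

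**Figure D4:**
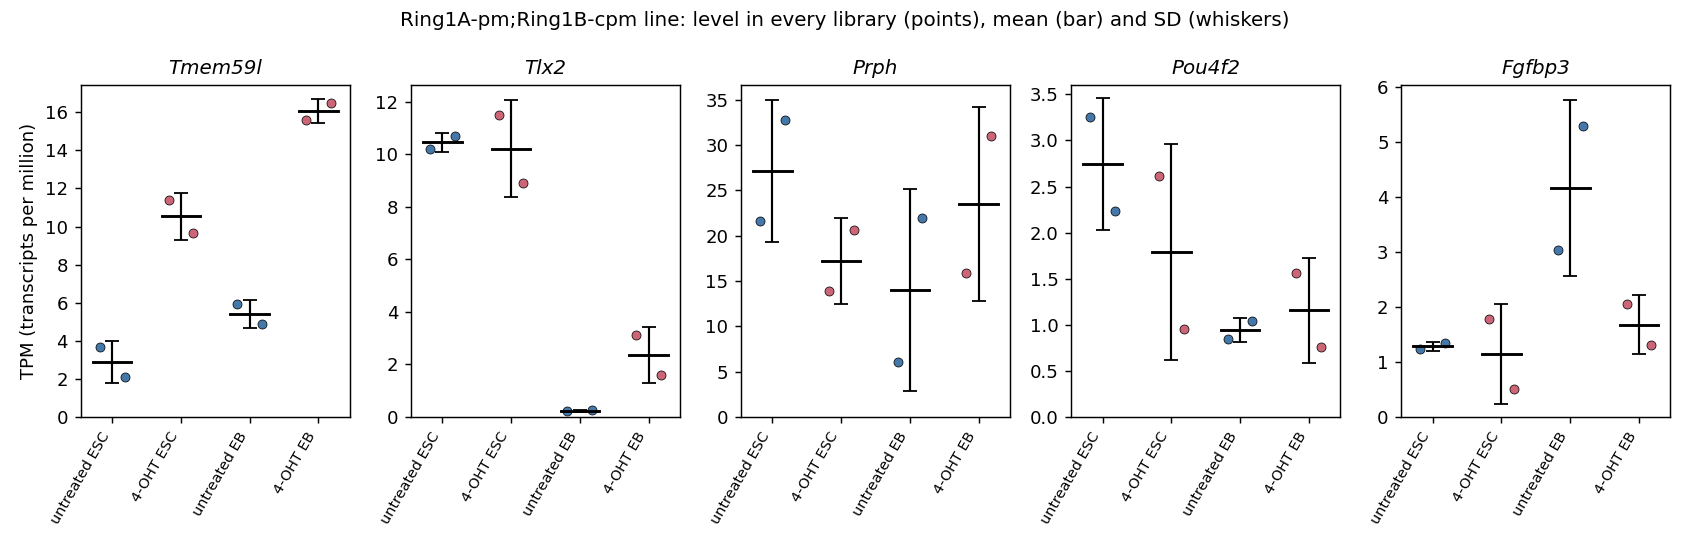
Level (TPM, linear axis from 0) of the 5 genes in the 4 groups of the point mutant line; points are the 2 libraries of each group, horizontal bars their means and whiskers the SD. Tlx2 was at 8.90 to 11.5 TPM in the 4 ESC libraries, at 0.212 and 0.259 TPM in untreated EBs and at 3.11 and 1.59 TPM in treated EBs.

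Markers of the stage moved beside these results. In the point mutant line, Fgf5, a marker of the formative epiblast that EBs model, was at 22.7 and 44 TPM in untreated EBs and at 2.91 and 3.06 TPM in treated EBs. There 5 of 7 formative markers were called lower (list median -1.80), and their summed level was 734 and 997 TPM in untreated EBs against 243 and 301 TPM in treated EBs. Of 12 pluripotency genes, 3 were called higher in treated EBs (Tbx3, Klf4 and Nanog), with sums of 3050 and 3200 TPM untreated and 3650 and 3790 TPM treated. The 12 markers of feeder fibroblasts summed to 49 and 50.4 TPM in untreated ESCs against 85.1 and 102 TPM in treated ESCs, and to 33.4 and 37.2 TPM in untreated EBs against 79.4 and 81.5 TPM in treated EBs, so that the groups did not overlap at either stage. In the Pcgf1 line, the summed level of 7 formative markers ran from 1480 to 3720 TPM in control EBs and from 556 to 2450 TPM in their KO counterparts, with 1 of 7 called lower (Zic2, -1.28). The 12 pluripotency genes had sums of 1890 to 2780 TPM in control EBs against 1920 to 3720 TPM in KO EBs, with 2 of 12 called higher (Tfcp2l1 and Nr0b1). The same feeder markers summed to 232 to 298 TPM in control ESCs, 181 to 241 in KO ESCs, 28 to 57.1 in control EBs and 9.87 to 19.3 in KO EBs, and only Lum was at 0 throughout a group, the KO EBs of this line and all but the treated EBs of the point mutant line. The part of the stage and of feeder cells in the levels of the 5 genes was not tested.

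**Figure D5:**
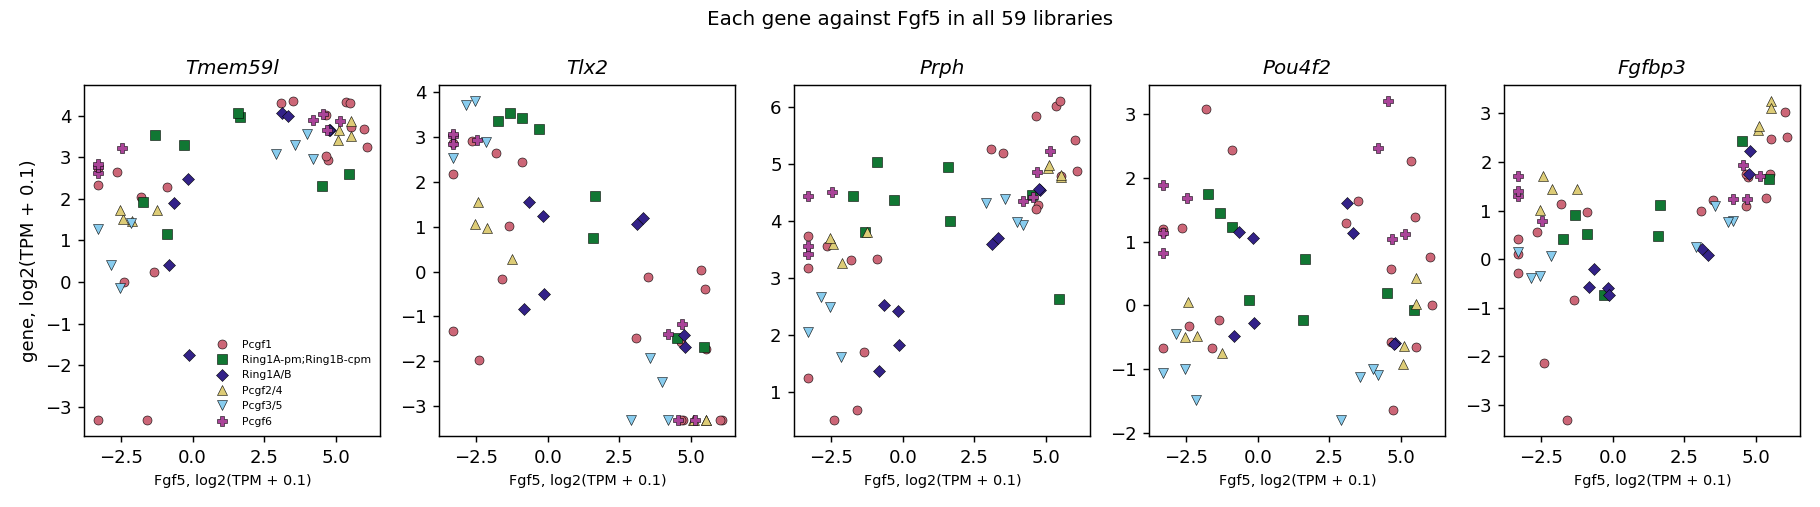
Level of each of the 5 genes against that of Fgf5, each as log2(TPM + 0.1), in all 59 libraries, marked by line. Tlx2 is listed at 0 in 12 libraries, each with high Fgf5, and Tmem59l and Prph were mostly higher where Fgf5 was high.

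Between KO and control, pan-neuronal, neural progenitor and neural crest markers did not follow the 5 genes in the Pcgf1 line. In KO EBs, 0 of 14 pan-neuronal markers were called higher and 2 lower, the synaptic gene Snap25 (-2.31, limma adjusted p = 0.0219) and the growth cone gene Gap43 (-1.83, limma adjusted p = 0.0387), with a list median of -0.37. At an unadjusted p under 0.05, 2 of the 14 were higher and 6 lower. Their summed level was 159 to 278 TPM in control EBs against 253 to 358 TPM in KO EBs, so the sum and the median of the list differ in direction. None of 12 neural progenitor markers and none of 10 neural crest markers was called at either stage, with medians in EBs of -0.52 and -0.19. At an unadjusted limma p under 0.05 in EBs, 1 progenitor marker was higher and 2 lower, and 1 crest marker higher and 3 lower. Of 24 tested genes of a peripheral and sensory neuron list, 1 was called higher and 0 lower at each stage, where 0.32% and 1.08% of all genes were called higher. The medians of this list were 0.19 in ESCs and -0.06 in EBs. Its 25 genes summed to 32.7 to 74.8 TPM in control EBs and to 59.7 to 138 TPM in KO EBs. The medians of all genes were -0.02 in ESCs and -0.03 in EBs. From control ESCs to control EBs, 8 of 14 pan-neuronal markers were called higher and 1 lower (list median 1.37). The counts were 5 and 1 of 12 neural progenitor markers (1.17) and 2 and 1 of 10 neural crest markers (0.28). Of all genes, 11.5% were called higher and 13.4% lower there. From KO ESCs to KO EBs these lists had 7 and 0, 2 and 0, and 0 and 0, against 8.13% and 10.2% of all genes.

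Lists built around the function of single genes gave few calls in the Pcgf1 line. Of 9 other type III and IV intermediate filament genes, the group of Prph, 1 was called higher in KO ESCs (Des, desmin, 0.97, limma adjusted p = 0.0401) and 0 in KO EBs. Of 23 FGF pathway genes, the group of Fgfbp3, 0 were called at either stage, and at an unadjusted limma p under 0.05 there were 5 higher and 2 lower in ESCs and 6 higher and 0 lower in EBs. Of 29 homeobox genes of the NKL and POU classes, the classes of Tlx2 and Pou4f2, 0 were called in KO ESCs and 1 in KO EBs (Hhex, 0.93, limma adjusted p = 0.00847). Among the closest relatives of the 5 genes, the difference in KO EBs was 0.66 for Tlx1, 1.74 for Tlx3, 0.61 for Pou4f1, 1.1 for Pou4f3, 0.01 for Tmem59, -0.32 for Vim, 0.57 for Des, -0.67 for Gfap and 1.41 for Fgfbp1, and none passed the threshold (limma, adjusted p of 0.0881 or more).

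In the point mutant line, where 2.34% of all genes were called higher in treated ESCs and 3.76% in treated EBs, most lists held calls, whether neural or not. The peripheral and sensory list had 5 of 24 genes called higher in treated ESCs (list median 1.45) and 6 of 24 in treated EBs (0.98), none lower. In EBs these were Isl2 (4.28), Tlx1 (3.26), Tlx3 (3.15), Ret (2.86), Neurog1 (2.64) and Pou4f1 (1.25), which include relatives of Tlx2 and of Pou4f2. Neural progenitor markers had 5 of 12 called higher in ESCs and 6 of 12 in EBs, with Zic1, Pax3, Lhx2, Nes and Sox3 at both stages. The homeobox list had 5 of 28 called higher in ESCs and 13 higher and 1 lower in EBs. Pan-neuronal markers had 0 of 14 called at either stage by limma, and at an unadjusted p under 0.05 there were 1 higher and 2 lower in ESCs and 0 higher and 3 lower in EBs. Among lists of other cell types, trophoblast markers had 2 of 7 called higher in ESCs and 3 of 7 in EBs, primitive endoderm markers 2 of 8 at each stage, primitive streak markers 2 of 8 at each stage, and neural crest markers 3 of 10 and 1 of 10. Feeder fibroblast markers had 0 of 12 called in ESCs by limma (6 higher at an unadjusted p under 0.05) and 4 of 12 higher in EBs, Twist2 (2.64), Col1a1 (1.77), Col1a2 (1.70) and Thy1 (0.97). The FGF list had 2 of 23 called higher in ESCs, and 2 higher and 2 lower in EBs. For intermediate filaments, Nes, Nefh and Des were called higher in EBs, while Prph itself was not (0.93 ± 0.59, limma adjusted p = 0.435).

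Other lists are given by their counts, where 1.08% of all genes were called higher and 0.874% lower in KO EBs. In KO EBs of the Pcgf1 line, 3 of 8 primitive endoderm markers were called higher (Gata6 2.60, Pdgfra 2.11 and Gata4 1.40, list median 1.48), 1 of 8 primitive streak markers (Eomes, 1.70), and 1 higher (Eomes) and 1 lower (Krt7, -2.31) of 7 trophoblast markers. Of 10 subunits of the PCGF1 complex, Pcgf1 itself was the only one called at either stage. Among 12 feeder markers 1 was called lower in KO EBs, Thy1 (-2.69). A list of genes bound by RING1B to a like extent in ESCs and EBs, drawn from the study's chromatin data and not from these libraries, holds Tmem59l, Tlx2, Prph and Pou4f2 but not Fgfbp3. This list has 1501 of the 24391 genes listed, and membership was not tested. Of the other genes on it, 12 of 1355 (0.886%) were called higher and 3 (0.221%) lower in Pcgf1-KO ESCs, against 0.32% of all genes in each direction. In KO EBs 64 (4.72%) were higher and 8 (0.59%) lower, against 1.08% and 0.874% of all genes. In treated point mutant ESCs 162 of 1353 (12%) were higher and 0 lower, against 2.34% and 0.197%. In treated EBs of that line 225 (16.6%) were higher and 4 (0.296%) lower, against 3.76% and 0.764%.

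Over the 19 libraries of the Pcgf1 line, the genes most like each of the 5 were found by Pearson's r of log2(TPM + 0.1) among 14332 genes. The libraries share their stage and their series, so r is a description. For Tmem59l these were Depdc7 (0.95), Mboat1 (0.92) and Epor (0.92), and for Prph Ccne1 (0.98), Basp1 (0.96) and Wdr55 (0.95). For Tlx2 they were Fmnl1 (0.93), Adamtsl5 (0.92) and 1700007K13Rik (0.92), all lowest in control EBs on average. For Pou4f2 they were Arhgap10 (0.88), Nfatc1 (0.87) and Ccrn4l (0.87), and for Fgfbp3 Fam46b (0.90), Mdfi (0.90) and Vwa5b2 (0.89). Among the 5 genes, r was 0.91 for Tmem59l with Prph, 0.84 for Prph with Fgfbp3, 0.79 for Tmem59l with Fgfbp3, 0.64 for Tlx2 with Pou4f2 and -0.22 for Tlx2 with Prph.

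In the Ring1A/B line, the deposited names of both mutant ESC and both control EB libraries differ from their labels. By the labels, Tmem59l was at 0.196 and 1.23 TPM in control ESCs and at 12.4 and 12.4 TPM in mutant ESCs, and Prph at 3.44 and 2.5 against 23.3 and 23.6 TPM. Of the 5 genes, 3 were called higher in mutant ESCs, Tmem59l (4.32, limma adjusted p = 0.000705), Prph (2.96, 4.25e-06) and Fgfbp3 (2.65, 0.000182), and 1 lower, Tlx2 (-0.89, 0.0323). As many as 25.2% of all genes were called higher and 23.6% lower. The libraries labelled mutant ESC had Fgf5 at 28 and 27.5 TPM and the pluripotency gene Klf4 at 9.90 and 7.38 TPM, while those labelled control ESC had Fgf5 at 0.816 and 0.465 TPM and Klf4 at 754 and 766 TPM. In EBs by label, Prph was called higher (1.17, limma adjusted p = 0.00093), against 19.3% of all genes. The part of the stage in these differences was not tested.

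In the Pcgf2/4, Pcgf3/5 and Pcgf6 lines, none of the 5 genes was called between labelled mutant and control at either stage, and none had an unadjusted limma p under 0.05. Of all genes, 0.0401% were called in Pcgf3/5 ESCs, 0.0301% in Pcgf3/5 EBs and 0 in the other comparisons of these lines. In the Pcgf2/4 line, the 4 libraries of replicate 1 had Tlx2 at 1.12 to 2.85 TPM, Tmem59l at 2.68 to 3.24 and Fgf5 at 0.0713 to 0.319, whatever their label. The 4 libraries of replicate 2 had Tlx2 at 0, Tmem59l at 10.5 to 14.5 and Fgf5 at 33.9 to 46.3 TPM. In the Pcgf6 line, replicate 1 had Tlx2 at 7.05 to 8.23 and Fgf5 at 0 to 0.0813 TPM, and replicate 2 had Tlx2 at 0 to 0.345 and Fgf5 at 18.6 to 35.2 TPM. So in both lines Tlx2 was high where Fgf5 was low and Tmem59l was higher where Fgf5 was high, and the spread within a labelled group was of this size. With such a spread, the lack of calls in both lines cannot show that the 5 genes were unaffected. In the Pcgf3/5 line Tlx2 ranged from 0 to 13.9 TPM, and the only mutant and control library of the same stage whose names and labels both agree, EB replicate 1, had Tmem59l at 11.7 against 9.72 TPM, Prph at 15.7 against 20.8 TPM and Tlx2 at 0.0821 against 0.161 TPM. Over all 59 libraries, Tmem59l ranged from 0 to 20.3 TPM, Tlx2 from 0 to 13.9, Prph from 1.32 to 69.2, Pou4f2 from 0.187 to 9.10 and Fgfbp3 from 0 to 9.47.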

How the data were processed

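RNA was extracted from ESCs and 2-day EBs, poly(A) mRNA was selected from the total RNA with magnetic beads, and libraries were made with the NEBNext Ultra II kit. The authors aligned single-end reads with STAR (2.5.2b) to mm9 and counted reads on exons. The values they deposited are TPM per gene. The step from counts to TPM and the DESeq2 fits of the study need inputs not used here, so TPM were analysed as log2(TPM + 0.1).

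Groups came from the sample labels. In each line, 1 model over its 4 groups was fitted with limma (3.58.1, R 4.3.3; lmFit, eBayes with trend) to all genes with TPM above 0 in at least 1 library, and the Benjamini-Hochberg adjustment ran over all of these genes, with a threshold of 0.05. The fit was tested on simulated data. Besides the 5 genes, the text names targeted genes, relatives, genes of a list that passed the test (at most 6 per list), the 3 genes most like each in profile, the 3 genes just outside the rule, and the neighbours in the genome and stage markers, which were named after their values were seen. The 5 genes and all lists were chosen with earlier results of these data known. For replicates 4 and 5 of 1 group, title and replicate tag disagree and the title was used. Same-numbered libraries of the Pcgf1 line deviated together (r of 0.32 to 0.65 over 13400 genes, every pair above 0.1), so the numbers were taken to pair them. The pairing entered only the counts of pairs and the fit with the replicate block. The main fits held group means alone, and the exact permutation test was unpaired. With the block, 994 genes were called higher and 1149 lower in Pcgf1-KO EBs, against 222 and 180 in the main fit. Same-numbered libraries share the library series named in the file headers for replicates 1 to 3, while KO ESC replicates 4 and 5 carry each other's series. Libraries of different numbers were not compared, so pairing by number cannot be told apart from a shared series. Alternatives were a pseudocount of 1, a mean of at least 1 TPM, median-of-ratios and quantile scaling, the block, only the groups compared, an exact permutation test, and leaving out each library. Results on a few genes, and the counts that turn on them, are not reported here.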

Additional observations from a re-analysis of the deposited data

Results flagged for a closer look

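Each of the 5 genes was checked in each of the 4 groups of the Pcgf1 line, which made 20 checks of 4 or 5 libraries. In 3 of these checks 1 library stood far from the others by Dixon's criterion. Chance marks about 1 in 20 checks, but the checks share the same libraries and are not independent. Tmem59l was at 16 TPM in KO EB replicate 1, and the other 4 KO EB libraries were at 19.5 to 20.3 TPM. Tlx2 was at 0.201 TPM in control EB replicate 1, and the other 4 were listed at 0. Fgfbp3 was at 3.25 TPM in KO EB replicate 3, and the other 4 were at 1.89 to 2.28 TPM.

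Fgfbp3 moved in opposite directions at the 2 stages: KO was above control in 4 of 4 ESC pairs and below it in 5 of 5 EB pairs, and the fitted KO difference in EBs less that in ESCs came to -3.31 on the log2 scale. The difference was not tested, because the ESC contrast chose the gene.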

How the results depend on the processing

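No difference of the 5 genes that passed the threshold changed its sign under any alternative run. Among differences that passed no threshold, that of Pou4f2 in treated point mutant EBs (0.20) ran from -0.38 to 0.67 over the alternatives, that of Fgfbp3 in treated point mutant ESCs (-0.37) from -1.20 to 0.46 and that of Tlx2 there (-0.04) from -0.24 to 0.14. From ESCs to EBs in treated point mutant cells, Prph ran from -0.10 to 0.87, Pou4f2 from -1.19 to 0.17 and Fgfbp3 from -0.12 to 1.53, and in the control cells of the Pcgf1 line Pou4f2 ran from -0.24 to 0.35. The count of the 5 genes called higher in Pcgf1-KO EBs was 2, and it was 0 with only the groups compared, 4 by the exact permutation test, whose p is not adjusted over genes, 3 with the replicate block, 3 with median-of-ratios scaling, 3 with quantile normalization and 0 to 2 without 1 library. In treated point mutant ESCs the count of 1 became 0 with only the groups compared, 0 with quantile normalization and 0 without any 1 library. In treated point mutant EBs the count of 2 became 0 with only the groups compared and 0 to 2 without 1 library. The fits of only the groups compared and those without 1 library held fewer samples, those with another scaling did not, and the cause of these changes was not tested. With the replicate block the call of Prph in KO EBs was gained and no call of the 5 genes was lost.

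Low genes limit these results: control levels near 0 make fold changes depend on the pseudocount.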
